A study of Mus musculus with 6 samples.

Results

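The genes around the tumour suppressor p53 were followed in haematopoietic stem cells (HSC), the rare bone marrow cells that renew all blood lineages, of mice with a mutated Lig4 gene. The members were 10 listed genes, namely p53 itself (Trp53), its regulators Mdm2 and Mdm4, and the direct targets Cdkn1a, Ccng1, Phlda3, Zmat3, Aen, Sesn2 and Trp53inp1. They were chosen by taking every probe set that the array's annotation assigns to 1 of these genes and to no other. This gave 22 probe sets of 9 genes, among 34945 probe sets of 18193 genes that name a single gene. Trp53 was not analysed here, so what follows describes its regulators and targets.

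Both groups came from intercrosses of Lig4mut/+ mice, and the animals were 6 to 8 weeks old. The WT group were littermates with intact alleles (Lig4+/+), and the Lig4mut group carried the mutation, whose nature the labels do not give. HSC were sorted as CD150+CD48- KSL cells, with 3 biological replicates per genotype and 1 expression array for each, and no animals were treated. The labels do not say if a replicate stands for a single mouse or for pooled mice, and name no other allele.

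Unrepaired DNA double-strand breaks activate p53, a transcription factor that is otherwise kept low by Mdm2, a ubiquitin ligase that marks it for degradation, and by Mdm4, a related protein that masks its activation domain. Active p53 switches on genes for cell cycle arrest, repair and cell death, and also Mdm2, which closes a feedback loop. Lig4 encodes the ligase that seals breaks in non-homologous end joining, and in HSC p53 is known to govern quiescence and the response to damage.

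Levels are given as log2 values after quantile normalization of the 6 arrays, and differences as Lig4mut minus WT on that scale, with the standard error (SE) or standard deviation (SD). The single Lig4 probe set read 7.53, 6.66 and 7.63 in the WT arrays, taken in the order of replicates 1, 2 and 3 as throughout, and 4.97, 3.16 and 3.10 in the Lig4mut arrays. The mutated gene thus lay lower in every Lig4mut array, but did not pass (-3.53 ± 0.62 SE; limma, adjusted p = 0.129). Lig4mut replicates 2 and 3 were near the lowest deposited value, 3. Xist was high in WT replicate 3 (12.52) and Lig4mut replicate 2 (12.33) and at 4.84 to 5.82 elsewhere, so each genotype held 1 array of the female pattern. HSC markers averaged 10.17 to 10.31 over 12 measured genes in WT and 9.06 to 9.88 in Lig4mut. Of the 12, 10 had lower means in Lig4mut and 2 higher. The sort gene Kit was at 10.70 to 10.95 in WT and 9.56 to 10.35 in Lig4mut, lower in every Lig4mut array (-0.95; limma, adjusted p = 0.185). Slamf1, the gene of the sort marker CD150, was at 9.17 to 10.17 in WT and 8.89 to 10.71 in Lig4mut, with overlap (0.24). Other cell types were not evenly spread. The mean of 12 granulocyte genes was 7.33 to 8.26 in WT and 6.25, 10.99 and 6.81 in Lig4mut replicates 1, 2 and 3, that of 12 macrophage and dendritic cell genes 5.58 to 6.10 against 6.49 to 6.93, and that of 9 B cell genes 5.95 to 6.01 against 6.15 to 6.97. In the values as deposited, before this normalization, the B cell mean of Lig4mut replicate 1 lay within the WT range. The mean of 10 endothelial genes was 7.58 in WT replicate 1 and 8.56 to 9.60 in the other 5 arrays. In RNA of sorted cells, fewer cells of a type and less RNA per cell cannot be told apart. The difference between the 3-prime and 5-prime control probes of Actb was -0.43 to -0.18 in WT and -0.23 to 0.08 in Lig4mut, and that of Gapdh 0.83 to 0.96 and 0.86 to 1.17.

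No member passed the test between genotypes. Over all probe sets limma with Benjamini-Hochberg adjustment called 1 of 34945 (0.00286%, Klhl4, lower in Lig4mut), and none of the 22 members, whose smallest adjusted p by limma was 0.164. At an unadjusted p under 0.05 by limma, 5 members lay higher and 1 lower, beside 12.2% of all probe sets on the higher side and 5.3% on the lower. The same 6 were those whose genotypes did not overlap, meaning that all 3 Lig4mut arrays lay on 1 side of the 3 WT arrays. Of all probe sets 16.6% did so on the higher side and 7.13% on the lower. The 5 higher ones make up 22.7% of the members and the single lower one 4.55%, and they belong to few genes, since 2 of them read Ccng1. The median difference of the 22 was 0.24, beside 0.08 for all probe sets. Counted by gene through the brightest probe set, Aen and Phlda3 did not overlap on the higher side and none did on the lower, beside 21% and 5.65% of all genes. With the probe sets of a gene averaged, Ccng1, Phlda3 and Aen did so on the higher side and Mdm2 on the lower, beside 21.2% and 7.14% of all genes.

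**Figure D1:**
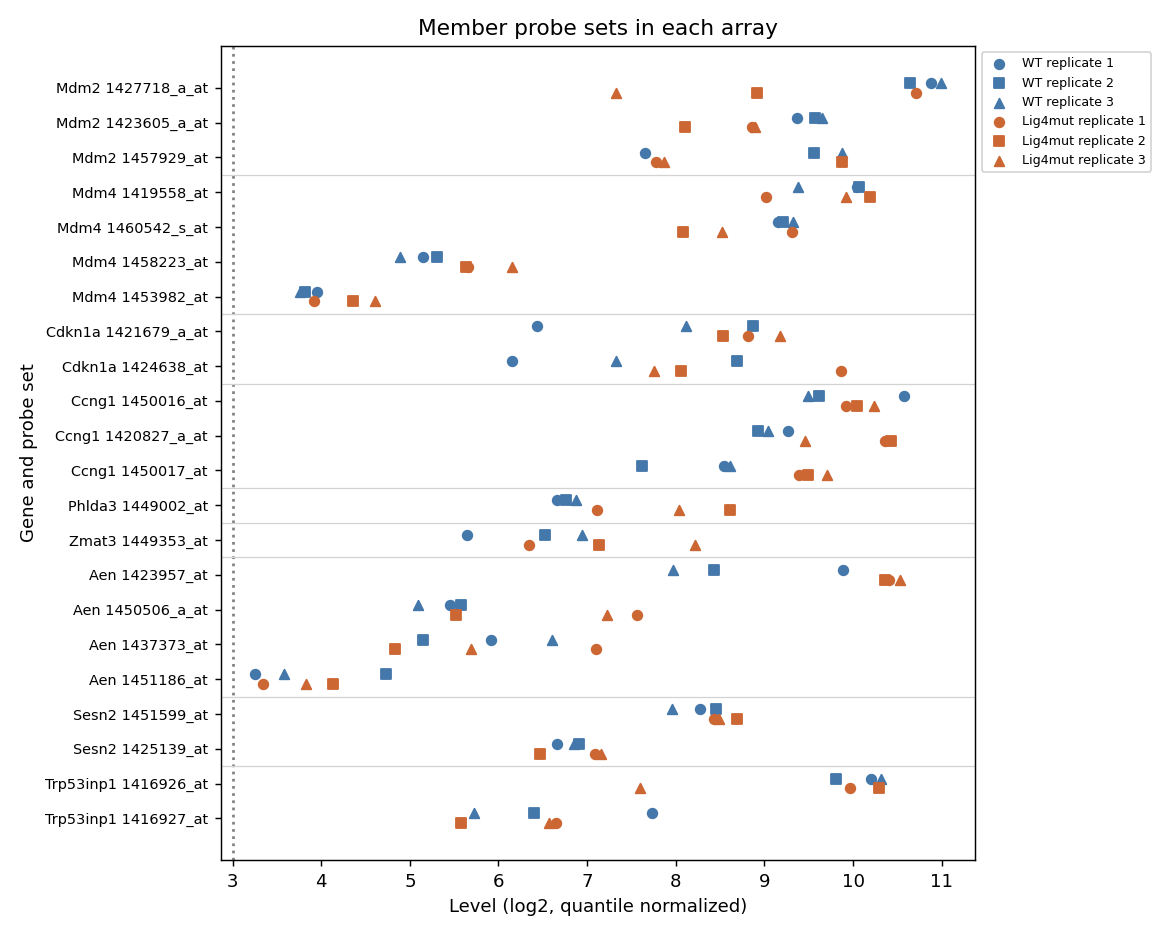
Level of each of the 22 member probe sets (log2, quantile normalized) in every array, with WT in blue and Lig4mut in orange and a symbol for each replicate number. The dotted line marks the lowest deposited value, 3. The Lig4mut symbols of Aen 1423957_at lie together above 10 while those of Mdm2 1427718_a_at are spread between 7.32 and 10.72.

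Mdm2, the chief restraint on p53 and itself one of its targets, had lower means in Lig4mut HSC with all 3 of its probe sets. Probe set 1423605_a_at read 9.37, 9.57 and 9.65 in WT and 8.86, 8.10 and 8.90 in Lig4mut. Every Lig4mut array thus lay below every WT array, with a difference of -0.91 ± 0.26 SE, 1.88-fold, which did not pass (limma, adjusted p = 0.198). Probe set 1427718_a_at, the brightest, read 10.88, 10.64 and 10.99 in WT and 10.72, 8.92 and 7.32 in Lig4mut. Lig4mut replicate 1 was inside the WT range here while replicates 2 and 3 were far below it. The difference of -1.85 ± 0.88 SE (limma, adjusted p = 0.363) was -1.02 without Lig4mut replicate 3 and -2.72 without Lig4mut replicate 1. The third probe set, 1457929_at, ranged from 7.65 to 9.87 in WT and from 7.78 to 9.87 in Lig4mut, nearly the same span (-0.52 ± 0.87 SE; -1.21 without WT replicate 1 and -0.10 without WT replicate 3). Averaged over its probe sets Mdm2 had a WT level of 9.80 ± 0.45 (SD, n = 3) and a Lig4mut level of 8.70 ± 0.59, and this mean kept every Lig4mut array below the WT arrays (-1.09 ± 0.38 SE; limma, adjusted p = 0.203).

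Mdm4, the partner of Mdm2, gave no common direction over its 4 probe sets. Its brightest, 1419558_at, read 10.05, 10.07 and 9.37 in WT and 9.01, 10.19 and 9.92 in Lig4mut. The groups overlapped, and the difference of -0.12 had a 95% interval from -1.12 to 0.88, with the sign turned (0.20) when arrays were centred on their medians. Probe set 1460542_s_at lay between 9.16 and 9.32 in WT and read 9.31, 8.08 and 8.52 in Lig4mut, where replicate 1 again matched WT and the other arrays were lower. In 1458223_at, a dim probe set, the Lig4mut arrays at 5.64 to 6.16 all lay above the WT arrays at 4.89 to 5.31 (0.70 ± 0.21 SE; limma, adjusted p = 0.206), with a difference of 0.40 in the values as deposited. The dimmest, 1453982_at, had values of 3.76 to 3.96 in WT and 3.92 to 4.61 in Lig4mut, little above the lowest deposited value of 3. The mean over the 4 probe sets differed by 0.11 ± 0.15 SE.

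Cdkn1a encodes p21, the inhibitor of cyclin-dependent kinases through which p53 halts the cell cycle. Its means were higher in Lig4mut with both probe sets, but 1 WT array carried much of the gap. Probe set 1421679_a_at read 6.43, 8.87 and 8.12 in WT and 8.82, 8.53 and 9.18 in Lig4mut. WT replicate 2 stood within the Lig4mut range, and WT replicate 1 lay far below all other arrays. The difference was 1.03 ± 0.67 SE (limma, adjusted p = 0.491), with a 95% interval from -0.69 to 2.75, and it was 0.35 without WT replicate 1 and 1.57 without WT replicate 2. Probe set 1424638_at read 6.15, 8.70 and 7.33 in WT and 9.86, 8.06 and 7.76 in Lig4mut, again with the lowest value in WT replicate 1 (1.17 ± 0.88 SE; limma, adjusted p = 0.556; 0.52 without Lig4mut replicate 1 and 1.82 without WT replicate 2). The mean of the endothelial marker genes was also lowest in WT replicate 1, as were 6 of the 10 genes one by one, 9 of the 10 had higher means in Lig4mut, and their part in the Cdkn1a values was not tested.

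Ccng1, which encodes cyclin G1, a p53 target that acts back on Mdm2, had higher means in Lig4mut with all 3 probe sets. Probe set 1450017_at read 8.54, 7.62 and 8.61 in WT and 9.40, 9.49 and 9.71 in Lig4mut. The Lig4mut arrays lay close together and above every WT array, a difference of 1.28 ± 0.31 SE or 2.42-fold (limma, adjusted p = 0.164). Probe set 1420827_a_at read 9.26, 8.92 and 9.05 in WT and 10.36, 10.43 and 9.46 in Lig4mut, again without overlap (1.00 ± 0.31 SE, 2.00-fold; limma, adjusted p = 0.212). In 1450016_at, at 10.58, 9.61 and 9.49 in WT and 9.92, 10.05 and 10.23 in Lig4mut, WT replicate 1 was the highest of all arrays and the difference was 0.17 ± 0.33 SE, or -0.03 without WT replicate 3. As a mean over the 3 probe sets Ccng1 had a WT level of 9.08 ± 0.37 (SD, n = 3) and a Lig4mut level of 9.89 ± 0.09 (0.82 ± 0.22 SE; limma, adjusted p = 0.141).

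The DNA just before the start of these genes was searched for the p53 consensus site, a pair of 10-base half-sites back to back that read the same on both strands. Windows of 250 bases before to 50 bases after the start were taken from RefSeq (GRCm38.p6), which held 10 windows for 7 of the 9 measured genes. A site was counted with the fixed letters CNNGNNNNNNCNNG intact and at most 3 departures from the consensus elsewhere, which holds for 1.38% of 32851 windows of all genes, and with at most 1 departure for 0.067%. Cdkn1a and Ccng1 each had a site with 1 departure, and Aen, an exonuclease gene, a site with 3. The windows are shown 5′ to 3′ with the site in capitals, beside that of Mdm2, in which no such site was found. The Mdm2 window lies at the 5′ end of the gene, and DNA further inside the gene was not searched. It holds 1 half-site, and 8.36% of all windows hold a half-site.
Cdkn1a, chr17:29090729-29091028, + strand: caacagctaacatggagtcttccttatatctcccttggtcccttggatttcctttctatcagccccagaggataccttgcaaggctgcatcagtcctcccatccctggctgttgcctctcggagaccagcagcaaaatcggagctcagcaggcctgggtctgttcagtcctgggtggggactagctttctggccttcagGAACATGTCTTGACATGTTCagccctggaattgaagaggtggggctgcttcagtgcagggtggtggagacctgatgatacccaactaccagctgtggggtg
Ccng1, chr11:40755237-40755536, - strand: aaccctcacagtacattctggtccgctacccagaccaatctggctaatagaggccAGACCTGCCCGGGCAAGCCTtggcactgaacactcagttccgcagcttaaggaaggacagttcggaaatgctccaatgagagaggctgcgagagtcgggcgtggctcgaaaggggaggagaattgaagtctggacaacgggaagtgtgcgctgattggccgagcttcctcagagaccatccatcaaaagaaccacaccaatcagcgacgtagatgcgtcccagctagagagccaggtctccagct
Aen, chr7:78895677-78895976, + strand: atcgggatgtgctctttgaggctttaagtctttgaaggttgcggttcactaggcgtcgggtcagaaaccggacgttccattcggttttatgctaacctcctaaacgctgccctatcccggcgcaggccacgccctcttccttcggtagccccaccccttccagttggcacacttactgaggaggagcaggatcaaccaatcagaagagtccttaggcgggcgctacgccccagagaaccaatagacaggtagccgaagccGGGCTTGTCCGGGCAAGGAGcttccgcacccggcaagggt
Mdm2, chr10:117710709-117711008, - strand: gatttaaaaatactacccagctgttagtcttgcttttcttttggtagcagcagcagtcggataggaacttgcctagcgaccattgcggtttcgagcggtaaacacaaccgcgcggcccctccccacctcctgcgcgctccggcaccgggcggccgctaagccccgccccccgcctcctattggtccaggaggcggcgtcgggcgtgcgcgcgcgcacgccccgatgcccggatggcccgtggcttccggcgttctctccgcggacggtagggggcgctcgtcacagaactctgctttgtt
The site begins 51 bases before the upstream start of Cdkn1a (chr17:29090979), 195 bases before the start of Ccng1, and at base 11 after the start of Aen. A second Aen window overlaps the one shown and holds the same site. The second start of Cdkn1a lies downstream (chr17:29093769), and its window had no site, nor did the windows of Mdm4, Phlda3 and Sesn2. A match of letters is a description of the sequence, and no binding was measured.

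Aen and Phlda3, targets linked to cell death, had higher means in Lig4mut in their brightest or single probe set. Aen encodes an exonuclease that enhances apoptosis. Its probe set 1423957_at read 9.89, 8.44 and 7.97 in WT and 10.40, 10.36 and 10.54 in Lig4mut. The 3 Lig4mut arrays were nearly level and above all WT arrays, of which replicate 1 came closest. The difference of 1.67 ± 0.53 SE, or 3.17-fold, was the largest on the higher side among the members (limma, adjusted p = 0.22). The other probe sets of Aen differed from this. Probe set 1450506_a_at lay at 5.09 to 5.58 in WT and read 7.56, 5.53 and 7.23 in Lig4mut, so that replicate 2 stayed at the WT level (1.40 ± 0.58 SE). The 2 remaining ones, 1437373_at and 1451186_at, had differences of -0.01 and -0.08, which turned to 0.02 and 0.05 when arrays were centred on their medians. Averaged over the 4, Aen had a WT level of 5.97 ± 0.16 (SD, n = 3) and a Lig4mut level of 6.71 ± 0.45, without overlap (0.74 ± 0.26 SE; limma, adjusted p = 0.203).

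Phlda3, which encodes a protein that competes with the kinase Akt for membrane lipids, has 1 probe set. It read 6.66, 6.76 and 6.87 in WT and 7.11, 8.61 and 8.04 in Lig4mut. The WT arrays agreed closely, and the Lig4mut arrays all lay above them, replicate 1 by little (1.16 ± 0.40 SE, 2.23-fold; limma, adjusted p = 0.251). Zmat3 encodes an RNA-binding zinc finger protein that acts in the p53 response. It read 5.64, 6.53 and 6.95 in WT and 6.34, 7.14 and 8.22 in Lig4mut. The groups overlapped, and the difference of 0.86 ± 0.60 SE was 0.37 without Lig4mut replicate 3.

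The genotypes overlapped in every probe set of Sesn2 and Trp53inp1, targets that act in stress defence and autophagy. Sesn2, a sestrin that restrains the growth kinase complex mTORC1, read 8.28, 8.45 and 7.95 in WT and 8.43, 8.70 and 8.49 in Lig4mut with probe set 1451599_at. The difference was 0.31, with a 95% interval from -0.14 to 0.76, and 0.17 without WT replicate 3 and 0.53 with arrays centred on their medians. Its other probe set, 1425139_at, differed by 0.10, with an interval from -0.49 to 0.68, and by -0.20 in the values as deposited and -0.10 with cyclic loess. Trp53inp1, a stress protein of the nucleus and of autophagic vesicles, read 10.20, 9.81 and 10.32 in WT and 9.96, 10.29 and 7.60 in Lig4mut with probe set 1416926_at. Lig4mut replicate 3 stood apart here, and without it the difference of -0.83 ± 0.78 SE was 0.02. Probe set 1416927_at differed by -0.35 ± 0.62 SE, and by 0.21 without WT replicate 1.

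**Figure D2:**
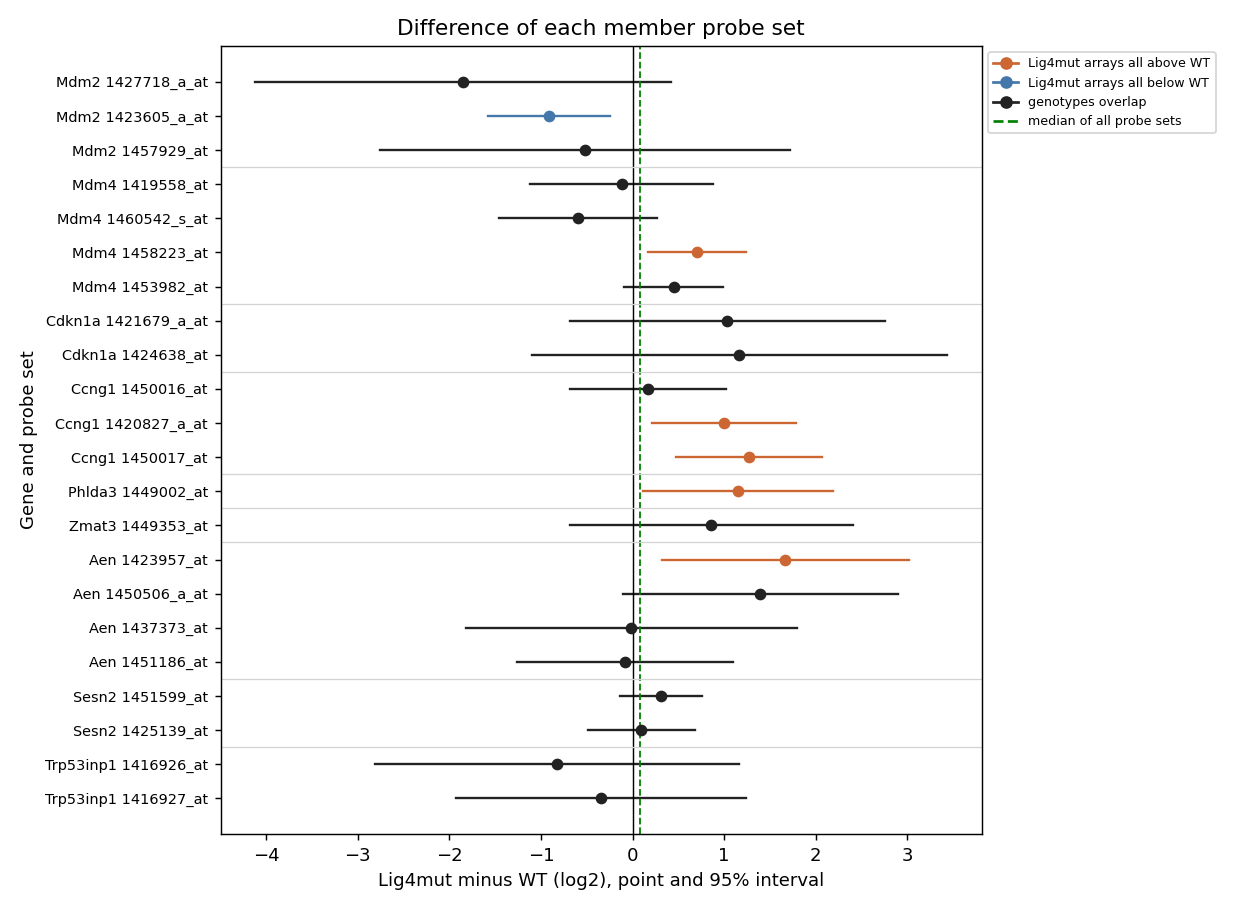
Difference between Lig4mut and WT (log2) for each member probe set, with the 95% interval of the limma fit, the dashed line at the median of all probe sets (0.08). The 5 orange points and the single blue point are the probe sets whose genotypes do not overlap, and the intervals of the other 16 include 0.

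The Lig4mut arrays differed from WT in different members. Lig4mut replicate 1 lay above all WT arrays in 9 member probe sets and below them in 2, replicate 2 in 10 and 6, and replicate 3 in 11 and 4. Over all probe sets the shares above were 38.4%, 39% and 39.5% and those below 25.3%, 28.5% and 27.1%. By gene, with probe sets averaged, Cdkn1a and Aen were highest in replicate 1, by 1.74 and 1.13 over the WT mean. Phlda3 was highest in replicate 2, by 1.84, the array with high granulocyte genes, whose part in that value was not tested. Zmat3 was highest in replicate 3, by 1.85, where Mdm2 and Trp53inp1 were lowest, at -1.77 and -1.28. Ccng1 was above the WT mean by a like amount in each Lig4mut array, by 0.81, 0.91 and 0.72. The spread between arrays was larger in Lig4mut than in WT for 13 of the 22 member probe sets, with a median SD of 0.57 against 0.33, beside 68.2% of all probe sets, with 0.48 against 0.31.

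**Figure D3:**
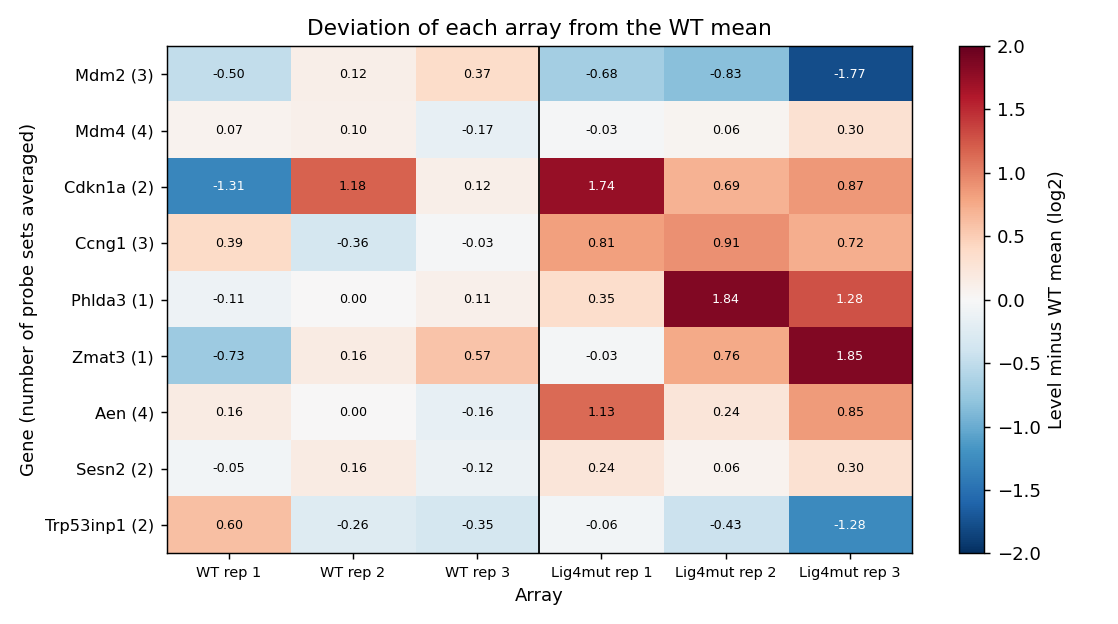
Each array's level minus the WT mean (log2) for the 9 measured genes, averaged over the probe sets counted in brackets. Red is above and blue below the WT mean. The row of Ccng1 is evenly red over the 3 Lig4mut arrays, and Cdkn1a in WT replicate 1, at -1.31, is as far from the WT mean as several Lig4mut values.

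Other genes of the pathway were counted by role, each gene by its probe set with the highest mean. The lists share genes. Pcna was counted among the DNA repair targets and also among the repressed cell cycle genes. Chek1 was counted among the activators upstream of p53 and also among the repressed cell cycle genes. None of the list genes passed the adjusted threshold in limma (0 higher and 0 lower in each of 7 lists), where 1 of 18193 genes did (0.0055%). At an unadjusted p under 0.05 by limma the shares of all genes were 15.8% higher and 4.03% lower, and the median difference of all genes was 0.18, with 61.4% of them higher. That median was 0.02 in the values as deposited, 0.09 with cyclic loess and 0.33 with arrays centred on their medians.

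Upstream of p53, 5 of 15 activators had higher and 10 lower values, with a median of -0.19, or 0.08 with arrays centred on their medians. At an unadjusted p under 0.05 by limma 1 was higher and 1 lower. Crebbp, the acetyltransferase CBP that acts on p53, had a WT level of 11.33 ± 0.11 (SD, n = 3) and a Lig4mut level of 10.21 ± 0.30 (-1.12 ± 0.19 SE; limma, adjusted p = 0.127). Averaged over 4 probe sets it differed by -0.45, and 1 of them was higher. Cdkn2a, the locus of the Mdm2 inhibitor Arf, differed by 0.60 ± 0.19 SE, and by 0.31 in the values as deposited. The damage mediators Mdc1 and Trp53bp1 differed by 1.05 ± 0.48 and -0.53 ± 0.31 SE, the first at 0.60 without WT replicate 3 and the second at -0.20 with arrays centred on their medians. Averaged over its 6 probe sets, 5 of them lower and 1 higher, Trp53bp1 differed by -0.98.

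Of 16 genes listed as restraints on p53, 10 had higher and 6 lower values, near the 61.4% of all genes that were higher. Their median was 0.33. With arrays centred on their medians 12 were higher, with a median of 0.61. The list also holds Usp10, Otub1 and Setd7, which are known to stabilize p53, so its counts do not describe restraints alone. Those genes had higher values (0.28, 0.38 and 0.81), each with overlap. At an unadjusted p under 0.05 by limma 1 was higher and 4 were lower, 25% of the list on the lower side. The 5 were 4 or 5 under each of the 16 alternatives. Ppp1r13l, which encodes iASPP, an inhibitor of the apoptotic function of p53, read 7.35, 7.15 and 7.29 in WT and 8.62, 9.08 and 8.63 in Lig4mut. The genotypes were far apart relative to their spread, with a difference of 1.51 ± 0.17 SE, 2.85-fold (limma, adjusted p = 0.118), and all 4 probe sets of the gene were higher. Sirt1, a deacetylase of p53, read 8.09, 8.33 and 7.85 in WT and 3.24, 6.53 and 3.00 in Lig4mut. Its single probe set was at the lowest deposited value in Lig4mut replicate 3, and the difference of -3.83 ± 1.03 SE (limma, adjusted p = 0.185) was -3.20 without that array. Smyd2, a methyltransferase that represses p53, differed by -1.25 ± 0.32 SE, and the ubiquitin ligase gene Ube4b by -1.25 ± 0.37, with all 3 of its probe sets lower.

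The targets in arrest and feedback did not share a direction. Of 14 measured, 6 had higher and 8 lower values, with a median of -0.21, and 3 were higher and 0 lower at an unadjusted p under 0.05 by limma. The 3 were Gadd45a, a growth arrest gene (2.60 ± 0.67 SE), Gtse1 (0.93 ± 0.33) and Sfn, the 14-3-3 sigma protein of the G2 checkpoint (0.72 ± 0.18), while Fbxw7 was at -1.01, Plk2 at -0.97, both with overlap, and Ckap2 was at -0.92 ± 0.39 (-0.59 without WT replicate 2). Of the targets in apoptosis 12 of 15 had higher values, beside 61.4% of all genes, with a median of 0.42. In the values as deposited 10 were higher, with a median of 0.21, beside 9357 of all 18193 genes. The median of the apoptosis list was 0.25 with cyclic loess. At an unadjusted p under 0.05 by limma 4 were higher and 0 lower. They were Apaf1, the apoptosome scaffold (2.01 ± 0.55 SE, but 0.38 when averaged with its other probe set, which was lower), Triap1 (1.02 ± 0.38), Trp53i11 (0.97 ± 0.27) and the death receptor gene Fas (0.67 ± 0.23). The 4 make up 26.7% of the list, beside 15.8% of all genes. There were 2 without WT replicate 1, with array weights, with the replicate number as a block or with a term for the sex-linked pattern.

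The targets in metabolism and in DNA repair had members on both sides of 0. Of 14 metabolic targets 6 had higher and 8 lower values, with a median of -0.03, or 0.30 with arrays centred on their medians, and 0 were at an unadjusted p under 0.05 by limma. Aldh4a1 was at 0.77 ± 0.43 SE, Tigar at 0.54 ± 0.35, Ddit4 at -0.56 ± 0.34 and Acad11 at -0.61 ± 0.40, and these values moved by over 1.5 times when 1 array was left out or arrays were centred on their medians. Of 11 repair targets 4 had higher and 7 lower values, with a median of -0.09, or 0.22 with arrays centred on their medians, and Mgmt alone had an unadjusted p under 0.05 by limma (0.96 ± 0.33 SE). Rev3l was at -1.85 ± 0.85 (-1.01 as the mean of 3 probe sets), Xpc at -1.18 ± 0.88 (-0.55 without Lig4mut replicate 2) and Rrm2b at 0.59 ± 0.41, the last at -0.28 with its 4 probe sets averaged.

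Of the cell cycle genes that p53 represses through p21 and the DREAM complex, 18 of 22 measured had higher and 4 lower values, beside 61.4% of all genes on the higher side. The median was 0.39, 0.24 in the values as deposited and 0.55 with arrays centred on their medians, and 2 were higher and 0 lower at an unadjusted p under 0.05 by limma. The spindle checkpoint kinase gene Bub1b differed by 1.69 ± 0.26 SE with all 3 probe sets higher (1.11 as their mean), Ezh2, a histone methyltransferase of Polycomb, by 0.91 ± 0.23, and the transcription factor gene E2f1 by 1.01 ± 0.42. Mybl2 went the other way, at -1.75 ± 0.83 (-2.65 without WT replicate 1). The 2 make up 9.09% of the list, beside 15.8% of all genes, and there were 5 with median centring or the mean of probe sets.

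**Figure D4:**
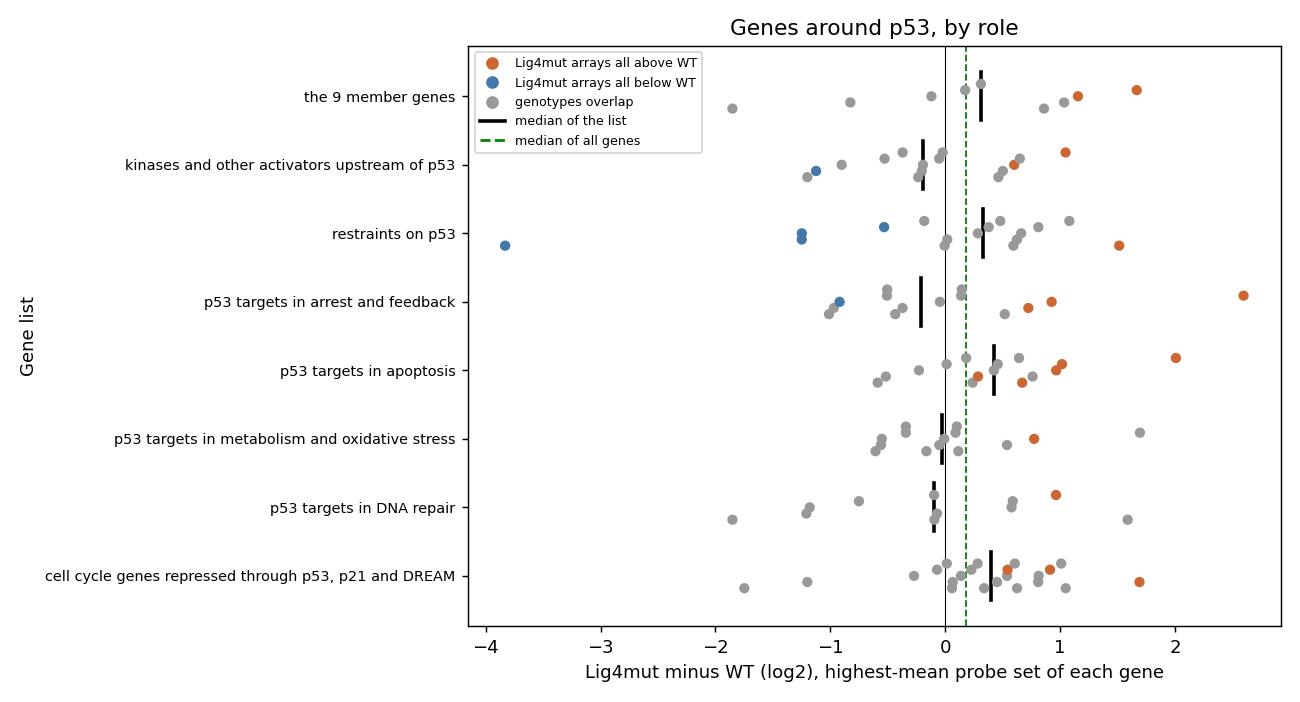
Difference between Lig4mut and WT (log2) for the genes of each list, 1 point per gene by its probe set with the highest mean, with the list's median as a black bar and the median of all genes (0.18) as a dashed line. Orange and blue mark genes whose genotypes do not overlap, and the 9 members and every list spread over both sides of 0.

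The genes whose profile over the 6 arrays was most like that of Cdkn1a, by the root-mean-square distance between mean-centred log2 values, were Gadd45b (0.321), Fscn1 (0.333) and Dnajc16 (0.358), out of 8792 candidates. All 3 were lowest in WT replicate 1, as Cdkn1a was. Most like Mdm2, taken by its brightest probe set 1427718_a_at alone, were Nsmaf (0.345), Ap3s2 (0.37) and Kdm5b (0.415). These genes were at or near the WT level in Lig4mut replicate 1 and lowest in Lig4mut replicate 3. The other probe sets of Mdm2 had other profiles, with 1423605_a_at lowest in Lig4mut replicate 2 (8.10) and 1457929_at highest there (9.87). The probe sets of Fscn1, Ap3s2 and Kdm5b disagree, with equal numbers higher and lower in each.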

How the data were processed

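Gene expression of sorted HSC was measured on 6 mouse expression arrays, 3 per genotype. The deposited table holds log2 expression values. RMA is the tool named in the submitters' processing notes, without a version. Every array has the same lowest value, 3, so a value there is a bound. Precision is limited by how few arrays there are.

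Of 45101 probe sets, 64 controls and those naming several genes or none were left out; names come from GEO's platform annotation, updated through gene identifiers. Because the deposited array medians differed between genotypes (6.29 to 6.34 in WT, 5.97 to 6.05 in Lig4mut), values were quantile normalized. The test was limma (3.58.1, R 4.3.3; lmFit and eBayes, two-sided, Benjamini-Hochberg over 34945 probe sets, threshold 0.05, no filter), a step tested on simulated data. An exact permutation test of 3 against 3 arrays cannot go below 0.1 and was not run. A gene is represented by its probe set with the highest mean.

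Members and lists were chosen with earlier results of these data known. All members are named, with Lig4, up to 4 genes of each pathway list by smallest p, and the 3 named genes above the median level closest in profile to Cdkn1a and to Mdm2. Klhl4, Xist, Kit, Slamf1, Fbxw7, Plk2, Pcna, Chek1, Usp10, Otub1 and Setd7 were named after their values were seen. The 16 alternatives were other scalings, a replicate block, leaving out arrays or dim probe sets, other gene summaries, other variance models and a term for the sex-linked pattern. Arrays of the same replicate number did not deviate together (r = 0.04, 0.01 and -0.03). This gives no sign that the numbers pair them, but 3 arrays per genotype are too few to exclude it. The marker lists of T and NK cells, erythroid cells and megakaryocytes averaged 4.44 to 4.93, 6.38 to 6.70 and 7.57 to 8.16 in WT and 4.92 to 5.31, 6.52 to 6.53 and 7.76 to 8.32 in Lig4mut.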

Additional observations from a re-analysis of the deposited data

How the results depend on the processing

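No member passed the adjusted threshold under any of the 16 alternatives, with a smallest limma adjusted p of 0.126 for a member (Phlda3 without Lig4mut replicate 1). The members whose genotypes did not overlap, 6 of 22, numbered 6 to 11 with 1 array left out, which makes separation easier (11 without WT replicate 2, beside 20.3% of all probe sets higher and 9.91% lower, and 11 without Lig4mut replicate 1, beside 23.8% and 14%). With median centring there were 8, beside 26.3% and 4.63%. By the mean of probe sets 4 member genes did not overlap in place of 2. Of all probe sets, limma called 1, and 2 in the values as deposited and 0 with the replicate block, with dim probe sets left out, with array weights, with the term for the sex-linked pattern and without any 1 array. With 1 probe set per gene 2 genes were called and with the mean of probe sets 0. At an unadjusted p under 0.05 there were 4253 higher and 1853 lower probe sets, a share of 69.7% higher. The counts were 1864 and 2553 as deposited (42.2%), 2301 and 2129 with cyclic loess (51.9%), 5043 and 1346 with median centring (78.9%), 1486 and 1117 with dim probe sets left out, and 2697 to 4506 higher and 1426 to 2572 lower with 1 array left out. Of the 22 members, 5 were higher and 1 lower at this level by limma. These counts were 3 and 1 as deposited or with cyclic loess, and 6 and 0 with median centring. With 1 array left out 1 to 4 members were higher and 0 to 3 lower, the fewest (1 and 0) without WT replicate 3. The median of all probe sets was 0.08, and 0.28 with median centring, so differences of the members are relative to a baseline that moves with the scaling. With the replicate block 3266 probe sets were higher and 1811 lower at that level, the smallest adjusted p of a member was 0.319, and no call on a member changed.

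Small differences changed sign under some settings, and the cause was not tested. Aen 1437373_at (-0.01) was at 0.016 with median centring, 0.11 with array weights and between -0.62 and 0.51 with 1 array left out. Aen 1451186_at was at 0.050 with median centring and between -0.38 and 0.35 with 1 array left out. Mdm4 1419558_at was at 0.20 with median centring and between -0.36 and 0.23 with 1 array left out, and the gene at 0.11 as the mean of probe sets. Sesn2 1425139_at was at -0.20 as deposited, -0.10 with cyclic loess and between -0.20 and 0.31 over all alternatives, with -0.029 without Lig4mut replicate 3. With 1 array left out, Trp53inp1 1416926_at ranged from -1.33 to 0.018 (without Lig4mut replicate 3), 1416927_at from -0.80 to 0.21 (without WT replicate 1) and Ccng1 1450016_at from -0.029 (without WT replicate 3) to 0.52. Rrm2b was at -0.28 as the mean of probe sets.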
